A study of Mus musculus with 11 samples.

Results

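In the ventral suprachiasmatic nucleus (SCN), 812 windows of 500 bp were listed by the authors as differing in captured methylated DNA between mice kept on 24 h cycles and mice kept on 22 h cycles. All 812 rows of that list are described here, out of 1239 windows in the 4 lists of the series. The mice were wild-type C57BL/6Cr1, labelled as 90 days old after birth, and had lived for 6 weeks under light-dark cycles of 22 h (T22) or 24 h (T24). They then spent 3 days in constant darkness, and tissue was collected at circadian time 4. From a coronal section about 250 µm thick the ventral SCN was separated with a knife. The labels give 2 ventral samples for each cycle length, and the list gives 1 column of values for each. Every mouse of the comparison was in darkness at the time of sampling, so the groups differ in their past light schedule. The ventral piece holds every cell type of that tissue block, and no measurement in the list could check which cells were in it.

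The SCN is the master circadian clock of mammals, and its ventral region receives the light input from the retina. Methylated DNA immunoprecipitation sequencing (MeDIP-seq) uses an antibody against methylated cytosine to pull down DNA fragments, which are then sequenced, so the reads in a window rise with the methylated cytosines its fragments carry. In mammalian DNA most methylated cytosines stand before a guanine, in the dinucleotide CpG. LINE-1 elements are retrotransposons that encode a reverse transcriptase. The promoters of mouse LINE-1 elements lie at the 5′ end and are built from CpG-rich units repeated in tandem. LTR retrotransposons carry long terminal repeats and a reverse transcriptase of another type, and both kinds are held silent by DNA methylation in most cells.

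The sequences that carried most of the list are shown first, with each CpG in capitals, 5′ to 3′, from the mm9 genome. The first pair are 2 successive units of a window in the largest group of windows lower at 24 h, nearest Ctnnd2, a catenin gene of synapses. The second pair come from another such group, in a window nearest Kcnab1, which encodes a subunit of potassium channels. Each window had a ratio at or near the median of its group.
Family 1 unit 1 (chr15:29913543-29913750, plus strand): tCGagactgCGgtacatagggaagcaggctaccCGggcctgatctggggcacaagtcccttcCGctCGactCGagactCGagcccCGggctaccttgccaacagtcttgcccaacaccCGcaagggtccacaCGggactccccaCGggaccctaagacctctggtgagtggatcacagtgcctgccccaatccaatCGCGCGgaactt
Family 1 unit 2 (chr15:29913751-29913958, plus strand): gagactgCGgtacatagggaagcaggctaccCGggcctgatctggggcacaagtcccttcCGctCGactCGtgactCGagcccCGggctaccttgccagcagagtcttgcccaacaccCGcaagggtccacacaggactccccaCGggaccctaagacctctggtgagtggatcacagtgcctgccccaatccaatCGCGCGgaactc
Family 3 unit 1 (chr3:65000251-65000462, minus strand): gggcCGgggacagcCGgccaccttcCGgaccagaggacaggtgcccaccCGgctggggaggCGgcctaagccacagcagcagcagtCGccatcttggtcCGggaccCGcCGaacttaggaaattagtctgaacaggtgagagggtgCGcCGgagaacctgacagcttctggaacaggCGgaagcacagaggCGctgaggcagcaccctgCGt
Family 3 unit 2 (chr3:65000039-65000250, minus strand): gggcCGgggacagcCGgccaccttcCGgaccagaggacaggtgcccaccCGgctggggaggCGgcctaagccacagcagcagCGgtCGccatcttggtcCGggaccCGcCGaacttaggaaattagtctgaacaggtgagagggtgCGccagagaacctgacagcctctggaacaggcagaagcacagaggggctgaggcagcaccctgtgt
The family 1 units were 208 bases long, held 14 and 12 CpGs, and differed by 8 single-base edits. The family 3 units were 212 bases long, held 14 and 11 CpGs, and differed by 6. Both windows were low at 24 h, with 3.44 RPKM at 24 h and 18.9 at 22 h for the Ctnnd2 window, and 1.91 and 12.2 for the Kcnab1 window.

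The next set comes from windows higher at 24 h. It shows an inner stretch of a LINE-1 element, a tandem repeat next to Cartpt, which encodes the neuropeptide CART, a short tandem repeat and a window of mostly unique sequence.
Family 6, nearest 2610316D01Rik (chr3:44471101-44471400, plus strand): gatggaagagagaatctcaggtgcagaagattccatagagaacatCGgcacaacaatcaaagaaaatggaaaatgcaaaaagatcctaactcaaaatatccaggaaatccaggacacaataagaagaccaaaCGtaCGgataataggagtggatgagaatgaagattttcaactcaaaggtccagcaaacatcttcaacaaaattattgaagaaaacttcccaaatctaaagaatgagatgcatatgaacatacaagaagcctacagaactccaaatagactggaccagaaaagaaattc
Cartpt (chr13:100671651-100671850, plus strand): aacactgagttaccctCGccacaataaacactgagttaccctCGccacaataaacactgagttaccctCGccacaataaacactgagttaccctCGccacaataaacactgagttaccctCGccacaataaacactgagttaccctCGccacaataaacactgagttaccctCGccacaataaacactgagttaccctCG
Short tandem repeat, nearest Disc1 (chr8:127643651-127643850, plus strand): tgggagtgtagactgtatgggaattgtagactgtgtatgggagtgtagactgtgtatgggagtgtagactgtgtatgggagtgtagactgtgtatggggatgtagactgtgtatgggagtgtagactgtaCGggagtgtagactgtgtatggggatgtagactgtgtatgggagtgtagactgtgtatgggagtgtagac
Mostly unique, nearest Chst1 (chr2:92500651-92500850, plus strand): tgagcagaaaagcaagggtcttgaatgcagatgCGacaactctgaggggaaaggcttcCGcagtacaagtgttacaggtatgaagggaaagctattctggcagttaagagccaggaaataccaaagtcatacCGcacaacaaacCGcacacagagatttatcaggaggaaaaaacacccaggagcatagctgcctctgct
The LINE-1 stretch held 3 CpGs in 300 bases. Its window had 9.56 RPKM at 24 h and 2.20 at 22 h. The Cartpt stretch repeated at a period of 26 bases, and 200 bases held 8 CpGs. The Disc1 and Chst1 stretches held 1 and 4 CpGs, and their windows had 14.2 RPKM each at 24 h, against 4.16 and 3.43 at 22 h. Disc1 encodes a scaffold protein of neurons and Chst1 a carbohydrate sulfotransferase.

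RPKM counts reads per kb of sequence for a fixed depth, so that columns of unequal depth can be compared. Since all windows have the same length, a read was worth 0.382 RPKM at 24 h and 0.245 RPKM at 22 h, and the columns held 5230730 and 8170567 reads. If reads lay evenly on the sequenced nuclear genome, a window would have about 0.39 RPKM. Of the 812 windows, 615 (75.7%) were lower and 197 (24.3%) higher at 24 h by RPKM. More than 2-fold lower were 609 windows (75.0% of the list), and more than 2-fold higher were all 197 (24.3%). The authors had selected every window for its difference, so these shares describe the list and not the genome. With 1 column per cycle length, variation from mouse to mouse was not measured and no test was made. The 95% intervals given below are exact intervals of the read ratio (Clopper-Pearson) and cover counting error only.

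The lower windows had a median of 2.68 RPKM at 24 h (quartiles 1.53 and 4.21) and 14.9 at 22 h (quartiles 11.8 and 18.1). The higher windows had a median of 10.7 at 24 h (8.79 and 13.4) and 2.94 at 22 h (1.96 and 4.16). In the column where they were high, the medians were 38.2 times (lower windows, 22 h) and 27.4 times (higher windows, 24 h) the level of even coverage. In the other column they were still 6.86 and 7.52 times that level. The typical difference was larger among the lower windows, at a median of 5.39-fold (log2 ratio -2.43), than among the higher ones, at 3.64-fold (log2 ratio 1.87). Differences over 4-fold were found in 500 lower and 83 higher windows. The interval of the ratio lay wholly past 2-fold in 550 of the 615 lower windows and in 71 of the 197 higher ones. All had been selected for their difference, so these counts describe the list and are no test of it. They also depend on read number. The lower windows had medians of 7 reads at 24 h and 61 at 22 h, and the higher ones 28 and 12.

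**Figure D1:**
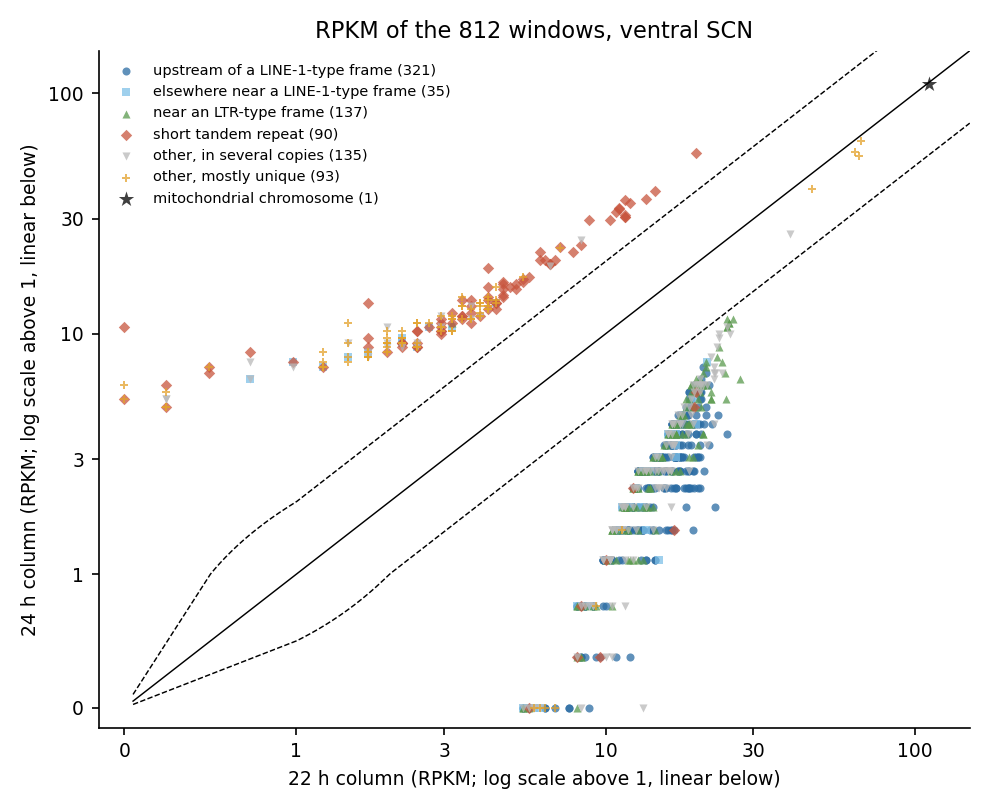
RPKM of each of the 812 windows in the 22 h column (x axis) and the 24 h column (y axis), both axes logarithmic above 1 RPKM and linear below; each point is a window, coloured by the sequence in or near it, the solid line marks equal RPKM and the dashed lines mark a 2-fold difference. Windows near LINE-1-type and LTR-type frames lie almost entirely below the line, short tandem repeats mostly above it, and 6 windows lie within the 2-fold lines.

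The lower windows were dominated by a single segment of LINE-1 elements. A LINE-1-type frame, that is an open reading frame of at least 600 codons with the reverse transcriptase motif FADD, was found within 8000 bp of 345 of the 615 lower windows (56.1%), 11 of the 197 higher windows (5.58%) and 4.63% of 5117 windows sampled at even steps along the genome. Of the 345, 290 (84.1%) had their centre 3500 to 4500 bp upstream of the motif, and 31 more lay 4500 to 5500 bp upstream. The middle 50% of them lay between 3816 and 4225 bp upstream. Sampled genome windows near such frames were spread along the whole stretch searched, with 15 of 237 (6.33%) in the same band. In 252 of the 290 windows of the band, at least 30% of the 15-base words recurred at about the spacing of the tandem units printed above, against 0.206% of 255835 genome windows. The band had a median of 30 CpGs per window and 2.68 RPKM at 24 h against 15.4 at 22 h.

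The 11 higher windows near such frames lay in another segment. Their centres were 2209 to 2788 bp upstream of the motif, and their windows held a median of 5 CpGs. In them the median was 8.79 RPKM at 24 h and 2.20 at 22 h. Among the listed windows, those of the upstream band were thus lower and these 11 higher. Between 2500 and 3500 bp upstream lay 8 lower and 5 higher windows. All had been selected for their difference, so the values do not show how either segment behaved as a whole.

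**Figure D2:**
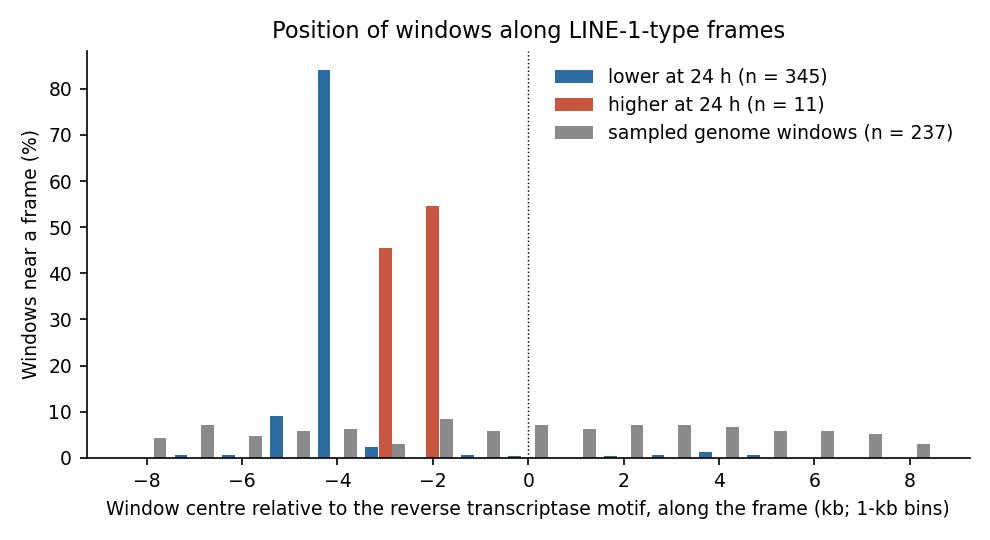
Position of windows along LINE-1-type frames, as the distance in kb from the reverse transcriptase motif to the window centre along the frame (x axis, 1-kb bins) and the percentage of the windows near a frame in each bin (y axis), for 345 windows lower at 24 h, 11 higher at 24 h and 237 sampled genome windows. The bin 3.5 to 4.5 kb upstream holds 290 of the lower windows, the higher windows fill 2 bins closer to the motif, and the genome windows are spread over all bins.

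Windows were then grouped by shared sequence, joining windows that shared at least 20% of their 15-base words, and the groups of at least 10 windows were numbered as families 1 to 10 by size. These 10 families took in 551 of the 615 lower windows (89.6%) and 37 of the 197 higher ones (18.8%). Outside them, in a comparison added after the values were seen, the balance was reversed, with 64 lower and 160 higher windows. Of the 10, 8 lay in 1 direction only. Family 1, with 244 windows, all lower, had a median of 2.68 RPKM at 24 h against 16.2 at 22 h, and the median 31-base word of its windows occurred 2422 times in the genome. Family 3, with 100 windows, had 1.53 and 11.5 RPKM, and family 4, with 25 windows, had 4.21 and 16.6. All 3 lay mostly at LINE-1-type frames, at medians of 3954, 4027 and 4182 bp upstream of the motif. The ratio differed among them, with medians of 5.46-fold in family 1, 6.55-fold in family 3 and 4.36-fold in family 4.

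Family 2 held 117 windows, all lower, of which 82 lay near an LTR-type frame, one with the motif YXDD in place of FADD. Its medians were 3.06 RPKM at 24 h and 15.9 at 22 h, with 24 CpGs. Family 8 (14 windows, 13 near LTR-type frames) had the highest 22 h level and the smallest median ratio of the 10 families, at 8.79 against 24.5 RPKM and a median of 2.62-fold. Family 5 (24 windows) had 5.93 against 19.8 RPKM. Family 10 (11 windows, with no frame found nearby) had 1.53 against 11.8, a median of 7.68-fold. The exceptions to direction were 2. A window nearest Lingo2, a gene for a leucine-rich receptor of neurons, fell in family 3 but had 9.18 RPKM at 24 h against 1.96 at 22 h (4.68-fold higher, 95% interval 2.04 to 12.1), and it held 4 CpGs where its family had a median of 31. A window nearest Pthlh, a parathyroid hormone-like gene, fell in family 7 and had 11.5 against 3.67 RPKM (3.13-fold higher, 1.63 to 6.25).

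Family 6 went the other way as a whole. All of its 21 windows were higher at 24 h. Their medians were 8.79 RPKM at 24 h (5.35 to 13.4) and 1.96 at 22 h (0.24 to 4.41). As in families 4, 5, 8 and 10, the columns did not overlap within family 6, though each window had been selected for its difference. Its windows held 2 to 6 CpGs and had a median GC content of 37.6%, against 12 to 35 CpGs and 62.6% in family 1. It was more repeated than family 1, with medians of 3814 and 2422 copies per 31-base word. Family 9, the other family higher throughout, had 14 windows, most of them short tandem repeats, with 16.4 against 5.14 RPKM and a median of 17.5 CpGs.

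Within a family, nearly all windows lay in the same orientation along the reference chromosomes. Of the 244 windows of family 1, 237 (97.1%) had their LINE-1 sequence running along the plus strand and 7 along the minus strand, whereas the 31-base words of the family occurred on the plus strand in 49.0% of their copies in the whole genome. Family 3 was turned the other way, with 3 windows along the plus strand and 97 along the minus strand, against 51.6% plus in the genome. The same held for family 2 (8 and 109, against 48.4%), family 4 (0 and 25, against 48.0%), family 5 (0 and 24, against 51.5%) and family 7 (1 and 17, against 48.8%). Families 6 and 8 lay mostly along the plus strand (19 and 2, and 13 and 1), against 50.1% and 61.2% of their words. Family 10, which has no frame to set its direction, had all 11 windows in 1 orientation, and family 9 was even, with 7 and 7. Of the sampled genome windows near a LINE-1-type frame, 115 lay along the plus strand and 122 along the minus strand. This pattern was noticed after the values were seen, and the windows of a family share their sequence. In the median lower window 0% of the 31-base words were unique and the median word occurred 781 times, so both the RPKM of such a window and the gene it was named after depend on how reads that match many copies were placed. That step is not given in the sources used here, and its part in the orientation and in the differences was not tested.

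**Figure D3:**
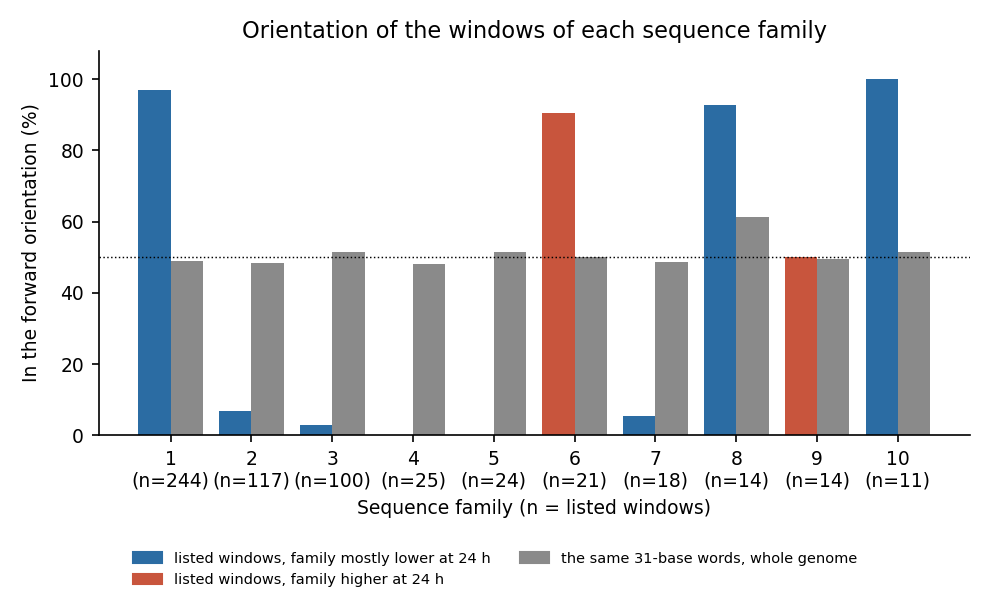
Percentage of the listed windows of each sequence family (x axis, families 1 to 10 with their number of windows) that lie in the forward orientation (y axis), beside the percentage for the same 31-base words over the whole genome in grey; forward follows the reading frame nearby, and is arbitrary for families 9 and 10. Families 1, 6, 8 and 10 stand at 90.5% or more, families 2, 3, 4, 5 and 7 at 6.84% or less (0 for families 4 and 5), and the whole-genome bars lie between 48.0% and 61.2%.

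CpG content differed between the directions. The lower windows had a median of 28 CpGs and the higher windows 5, where 5116421 genome windows had a median of 3. The median of the lower windows was 16 outside the 10 families and 12 among mostly unique windows, and that of the higher windows was 5 in both. Among the 109 listed windows with 0 to 5 CpGs, 104 (95.4%) were higher at 24 h. From 6 to 10 CpGs the share was 72.6% of 62 windows, from 11 to 15 it was 19.7% of 61, and from 21 to 30 it was 4.08% of 319. In 499 lower windows (81.1%) and 22 higher windows (11.2%) there were 20 CpGs or more, against 1.10% of genome windows. In contrast, 25 of the higher windows held no CpG. Within the lower windows, those with more CpGs had somewhat higher RPKM in both columns (Spearman rho across windows 0.40 with the 22 h and 0.35 with the 24 h values), and within the higher windows the values were 0.42 and 0.42. Windows are not independent, and those of a family share both sequence and depth, so no p-value is given.

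**Figure D4:**
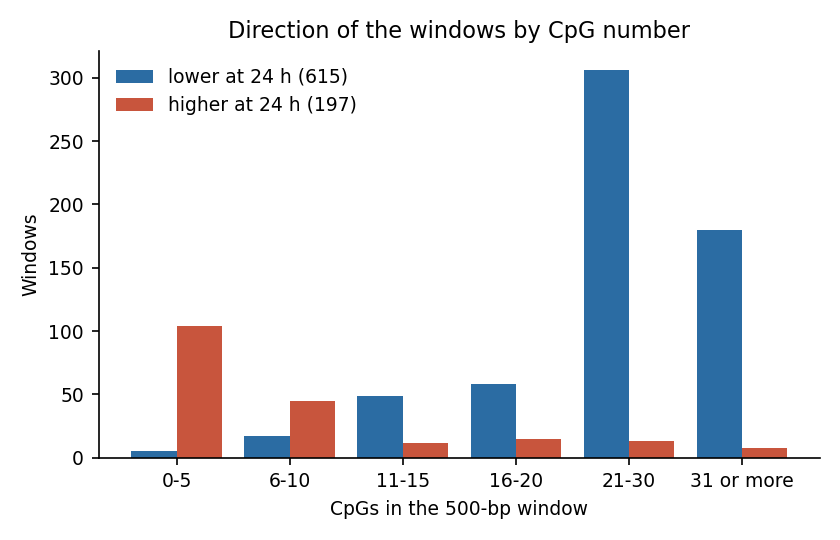
Number of listed windows (y axis) by the number of CpGs in the 500-bp window (x axis), for 615 windows lower and 197 higher at 24 h. Of the windows with 0 to 5 CpGs 104 are higher and 5 lower, and of those with 21 to 30 CpGs 13 are higher and 306 lower.

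The uniqueness of the sequence differed in the same way. At least 50% of the 31-base words occurred only once in the genome in 111 higher windows (56.3%), 19 lower windows (3.09%) and 86.1% of sampled genome windows. With the stricter limit of 80%, chosen after the values were seen, 66 higher windows remained, all past 2-fold, and 5 lower windows, none past 2-fold. Those 5 had the highest RPKM of all lower windows. They were a window of the mitochondrial gene mt-Nd5 (109 RPKM at 24 h and 111 at 22 h), 3 adjoining windows named after Esp38, a pheromone gene 106 to 107 kb away (63.1 against 66.8, 57.0 against 64.1 and 40.1 against 46.3), and a window within Sfi1 named after the pseudogene Pisd-ps3 (54.7 against 65.8). Their RPKM ratios lay between 1.02- and 1.20-fold, and each 95% interval included 1. The transcript start nearest to the 3 Esp38 windows in the annotation was that of AY036118, 3.77 to 4.77 kb away. Uniqueness was counted in the reference genome, and the number of copies in the mice was not measured. The authors' deposited table gives these 5 windows log2 fold changes between -0.53 and -0.85. That is further from 0 than their log2 RPKM ratios, and the cause was not tested. The sixth window within 2-fold, nearest Smgc, a salivary mucin gene, had 26.0 against 39.4 RPKM (1.52-fold lower, 1.13 to 2.04).

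No reads at 24 h were found in 31 of the lower windows, which had 5.39 to 13.2 RPKM at 22 h and were at least 4.70- to at least 11.5-fold lower when 24 h was set at a floor of 3 reads per window. By the deposited distance, the one with 13.2 RPKM lay 0.911 kb from the start site of the predicted gene Gm19757, the closest of all lower windows. In the annotation used here its nearest transcript start was 186 kb away, and 10 lower windows lay in promoters. An intronic window of Amph, which encodes the endocytic protein amphiphysin of nerve terminals, had no reads at 24 h, against 5.87 RPKM at 22 h (a bound of at least 5.12-fold lower). It is shown as a lower window of mostly unique sequence near the middle of its kind when bounds are ranked as ratios, and its inner 200 bases held no CpG.
Amph (chr13:19206651-19206850, plus strand): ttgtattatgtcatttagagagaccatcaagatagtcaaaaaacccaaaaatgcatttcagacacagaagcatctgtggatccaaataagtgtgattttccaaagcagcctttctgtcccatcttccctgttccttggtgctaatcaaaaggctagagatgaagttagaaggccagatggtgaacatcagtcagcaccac
The Amph window belonged to family 2, as did the Gm19757 window. Every 500-bp window of that family held at least 5 CpGs, so the Amph window held CpGs outside the stretch shown. The largest ratios of lower windows with reads in both columns rested on a single read at 24 h. A window nearest Nudt12, which encodes a nucleotide pyrophosphatase, had 0.38 RPKM at 24 h and 12 at 22 h, from 1 and 49 reads (31.6-fold lower, 5.37 to 1264). A window nearest Irs4, an insulin receptor substrate gene on chromosome X, had 0.38 against 9.55 (25.1-fold lower, 4.23 to 1011).

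The higher windows fell into 2 main kinds. Short tandem repeats, in which at least 30% of the 15-base words recurred within 100 bp, made up 81 of the 197 (41.1%), against 0.615% of genome windows. Their median was 13.4 RPKM at 24 h and 4.16 at 22 h. In 64 of them the best matching period was 7 to 100 bases and in 17 it was 6 bases or fewer. The other kind was sequence that was mostly unique and not such a repeat, with 83 windows (42.1%), a median of 9.56 against 2.45 RPKM, and 39 windows in introns. CA, TG, AC and GT together made up over 29.7% of dinucleotides, the 90th percentile of genome windows, in 101 higher windows (51.3%) and in 10 lower ones (1.63%), and its median was 33.7% in the tandem repeats and 33.5% in the mostly unique kind.

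Cartpt had the highest RPKM among the higher windows. The window lay 1113 bp from its start site by the deposited distance and overlapped the promoter on chromosome 13 (chr13:100671501-100672000), with 56.2 RPKM at 24 h and 19.6 at 22 h, from 147 and 80 reads (2.87-fold higher, 2.17 to 3.82). CART is a peptide of hypothalamic neurons that acts on feeding and arousal. Next in level came a window nearest Atp1b1, the beta subunit of the sodium-potassium pump, 77.3 kb away, with 39.0 against 14.4 RPKM (2.70-fold, 1.94 to 3.79). A window nearest Atp2a2, the calcium pump of the endoplasmic reticulum, had 35.9 against 11.5 (3.13-fold, 2.18 to 4.53). All 3 lay in short tandem repeats.

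Close to start sites, the higher windows named further genes. An exonic window of Kctd15, a gene of neural crest development, was fully unique, with 16 CpGs and 8.03 against 1.47 RPKM (5.46-fold, 2.13 to 16.6). The window at Tbata lay in its promoter and had 7.26 against 1.22 (5.95-fold, 2.14 to 20.3). Prpf18, a splicing factor gene, had 12.6 against 4.16 (3.03-fold, 1.64 to 5.80), and Tmcc3 had 10.7 against 1.96 in an intron 1.25 kb from the start site (5.46-fold, 2.43 to 13.9). Pon1, which encodes the serum enzyme paraoxonase, had 8.41 against 1.96 at 1.80 kb (4.29-fold, 1.84 to 11.2). Among windows with reads in both columns the largest ratios were at Adam18, with 6.12 against 0.24 RPKM in an intron, from 16 reads and 1 read (25.5-fold higher, 3.88 to 1048), and at A930006I01Rik, with 5.74 against 0.24 (23.9-fold, 3.6 to 986). Adjoining windows nearest Mir153, a microRNA gene within Ptprn2, both had 0.49 RPKM at 22 h, with 7.26 and 6.88 at 24 h (14.8-fold, 3.58 to 131, and 14.0-fold, 3.37 to 125).

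By the deposited distances, the lower windows nearest to start sites were repeats beside genes. Vmn1r48, a pheromone receptor gene, had 2 windows of family 3 at 1.58 and 2.58 kb, with 2.29 against 14.4 RPKM (6.31-fold lower, 2.73 to 17.8) and 2.68 against 13.5 (5.02-fold, 2.28 to 13.1). Olfr1055, an olfactory receptor gene, had a family 2 window at 2.17 kb with 1.91 against 14.2 (7.43-fold lower, 3.01 to 23.7). Lyrm2 and Ercc4, a DNA repair nuclease gene, had windows 3.48 and 4.08 kb from their start sites, with 10.7 against 24.7 and 5.35 against 24.5 RPKM. Ces1g, a carboxylesterase gene, had a family 1 window at 4.64 kb with 1.91 against 13.5 (7.05-fold lower, 2.84 to 22.5). Smpd4, a sphingomyelinase gene, had 0.38 against 8.08 RPKM at 4.70 kb, from 1 and 33 reads (21.3-fold, 3.54 to 859). All of these windows belonged to the large sequence families.

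Distances to the start sites of the named genes differed between the directions. The median was 106 kb for the lower and 40.5 kb for the higher windows. Of 614 lower windows with a named gene, 1 lay within 1 kb and 37 at 1 to 10 kb, against 0 and 30 of the 197 higher windows. Beyond 200 kb lay 196 lower windows (31.9%) and 29 higher ones (14.7%). Within 50 kb lay 33.2% of the lower and 56.9% of the higher windows. Measured to any transcript start of the annotation, the shares were 56.0% and 74.6%, against 63.1% of all genome windows. The distance gap went with the large families: among windows outside the 10 families, a comparison added after the values were seen, 60.3% of the lower and 61.9% of the higher windows lay within 50 kb of the named start site. Among the lower windows the median ratio was similar at all distances with more than 1 window, at 5.28-fold from 1 to 10 kb, 5.45-fold from 10 to 50 kb, 5.45-fold from 50 to 200 kb and 5.39-fold beyond.

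**Figure D5:**
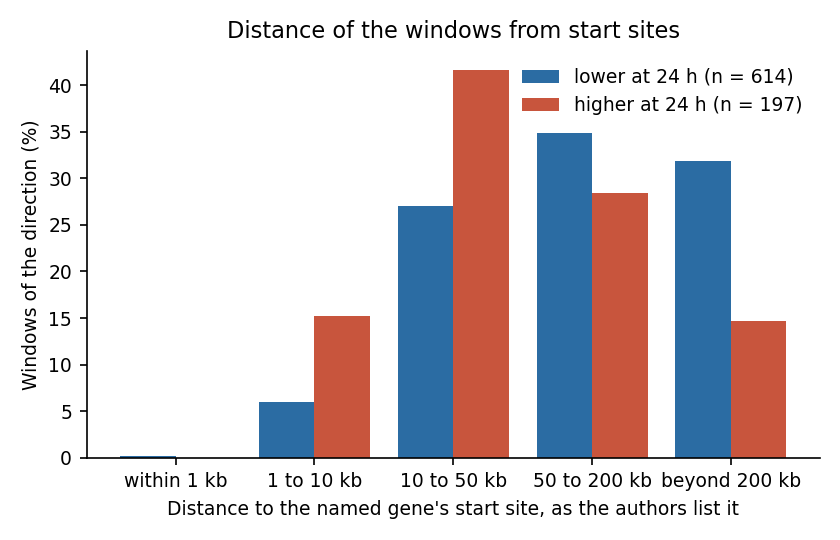
Percentage of the windows of each direction (y axis) by distance from the start site of the named gene (x axis), for 614 lower and 197 higher windows with a named gene. From 10 to 50 kb lie 41.6% of the higher windows, and beyond 200 kb 14.7% of the higher and 31.9% of the lower windows.

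By position in the gene annotation, 450 lower windows (73.2%) lay between genes, 153 (24.9%) in introns, 10 in promoters and 2 in exons. For the higher windows the numbers were 99 (50.3%), 84 (42.6%), 8 and 6. Sampled genome windows lay between genes in 57.6% and in introns in 32.6% of cases. The gene that names a window often did not contain it, since 89 lower and 55 higher windows lay in the body of the gene they were named after.

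Chromosome X stood apart. It held 71 of the lower windows (11.5%) and 4 of the higher ones (2.03%), while it makes up 6.33% of the sequenced genome and held 8.86% of the sampled windows near LINE-1-type frames. That is 0.438 lower windows per Mb, against 0.151 (chromosome 2) to 0.320 (chromosome 3) on the autosomes. The higher windows were densest on chromosome 5, with 23 windows or 0.156 per Mb.

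Of 110 pairs of adjoining windows, 0 had opposite directions, and adjoining windows can share fragments. The reads of a run were summed over its windows, so a shared fragment may be counted more than once. The intervals of the runs may therefore be too narrow even for counting error. Joined by direction, the 812 windows formed 527 lower and 175 higher regions, of which 77 and 22 had 2 windows or more. The longest was a run of 5 family 1 windows nearest Map3k7, a kinase gene of inflammatory signalling, with 2.68 to 4.59 RPKM at 24 h and 15.9 to 21.3 at 22 h (5.26-fold lower over the 45 and 370 reads of the run, 3.86 to 7.34). A run of 4 windows nearest Hs3st5, a heparan sulfate sulfotransferase gene, had 31 and 298 reads (6.15-fold lower, 4.24 to 9.22). A run of 3 windows nearest Nudt12 had 10 and 185 reads (11.8-fold lower, 6.30 to 25.1). Longer runs than 2 windows were not found among the higher regions. The runs of 2 nearest Atp1b1 (180 and 95 reads, 2.96-fold higher, 2.30 to 3.84) and 1700049E22Rik (186 and 104 reads, 2.79-fold, 2.19 to 3.59) held the most reads.

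The list named 639 genes, 505 of them by 1 window. Map3k7, Hs3st5 and Nudt12 named 5 windows each and the clone 4930448C13Rik named 4, and all of these windows were lower. In 5 genes the windows went both ways. Fam73a had both in introns, with 22.6 against 7.10 RPKM in a mostly unique window (3.18-fold higher, 2.0 to 5.14) and 1.15 against 10.3 in a window near an LTR-type frame (8.94-fold lower, 2.86 to 45.2). Pdzrn4, a gene for a PDZ domain protein of neurons, had 10.3 against 2.45 in a tandem repeat (4.21-fold higher, 1.98 to 9.77) and 4.21 against 16.4 in a family 2 window (3.90-fold lower, 2.05 to 8.18). Tox3 had 1 higher window and 2 lower windows, and 2610100L16Rik and Gm20740 had 1 of each. In each of the 5 genes, the lower windows lay in a sequence shared with other listed windows. So did all but 16 of the 615 lower windows of the list.

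Gene lists for the clock, for signalling in the SCN and for its cell types together named 63 of the 812 windows, and they are read beside the whole list, in which 75.7% of windows with a named gene were lower and the median log2 ratio was -2.25. Clock genes named 1 window, and the list of SCN neuropeptides and receptors, which also holds Calb1, named 2. Nr1d2, a nuclear receptor that represses the core clock loop, named a window with 1.53 RPKM at 24 h and 10.5 at 22 h, 93.9 kb from its start site (6.88-fold lower, 2.50 to 26.4). The window nearest Npy2r, a receptor of neuropeptide Y, had the same values, 46.2 kb away. Calb1, which encodes the calcium-binding protein calbindin found in SCN neurons, named a window with 3.06 against 14.9 RPKM at 303 kb (4.88-fold lower, 2.33 to 11.8). These were the windows of 1 of 30 clock genes and 2 of the 50 genes on the neuropeptide list (3.33% and 4%, against 2.25% of protein-coding gene names). All 3 lay near a long reverse transcriptase frame, as did 493 of the 811 windows with a named gene.

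Genes of transmitter receptors and scaffolds named 3 windows for GABA and 4 for glutamate. All were lower, in a list where 75.7% were lower, and they are too few to read as a result. The genes named were 3 of 39 and 2 of 45 (7.69% and 4.44%), against 2.25% of protein-coding gene names. Among GABA genes, the subunits Gabrg3 and Gabrq of the GABA-A receptor named windows with 0.76 against 8.32 and 3.82 against 20.6 RPKM. The 4 windows of glutamate genes lay nearest Gria3, an AMPA receptor subunit (3 windows), and Dlg2, a postsynaptic scaffold, where 6.12 RPKM stood against 20.8 (3.40-fold lower, 1.98 to 6.22). Kcnj6, a potassium channel gated by G proteins, named the single window of the 64 ion channel genes (1.56% named), with 1.53 against 11.8. The windows named here all lay near a LINE-1-type or LTR-type frame and were past 2-fold. The same held for most of the 615 lower windows of the list. Of those, 345 lay near a LINE-1-type and 136 near an LTR-type frame, and 609 were past 2-fold.

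Synaptic and neural cell adhesion was the list with the most windows, 26 for 21 of its 92 genes, of which 22 (84.6%) were lower and 4 higher, with a median log2 ratio of -2.29. The genes named were 22.8% of the list, against 2.25% of 22238 protein-coding gene names of the annotation; the list was chosen with earlier results known, its windows lay a median of 254 kb from the named start sites, and the part of gene spacing in this share was not tested. Of the 26, 19 lay near a long reverse transcriptase frame and 10 in or at a gene, against 493 and 262 of the 811 windows with a named gene. Pcdh8, a protocadherin gene, had the lower window closest to its start site, at 28.6 kb, in a mostly unique window of family 2, with 0.76 against 9.30 RPKM (12.2-fold lower, 3.14 to 104). Ptprt, a receptor phosphatase of cell contacts, had 5.74 RPKM at 24 h in an intron (3.33-fold lower, 1.90 to 6.23), and Chl1, a cell adhesion molecule of the L1 type, had 2.68 against 14.4. Flrt3, a leucine-rich adhesion protein, named a window within Macrod2 with 0.76 against 8.08. The 4 higher windows were nearest Sdk1 (8.41 against 1.96), Lphn2 (12.6 against 4.41), Slitrk5 (7.26 against 1.22) and Ptprd (7.26 against 0.49), none of them near such a frame, and they held 0 to 14 CpGs. Cadherins and protocadherins, an overlapping family matched by symbol, named 8 windows for 5 genes. All were lower, in a list where 75.7% were lower, and they are too few to read as a result. They lay a median of 604 kb from the named start sites, and 6 were near a long reverse transcriptase frame.

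Axon guidance genes named 3 lower windows and 1 higher one, in a list where 75.7% were lower. The genes named were 4 of 46 (8.7%), against 2.25% of protein-coding gene names. The window nearest the guidance ligand gene Slit2, 13.1 kb away, had 1.91 against 12.2 RPKM (6.41-fold lower, 2.57 to 20.6). The one nearest its receptor gene Robo2, 367 kb away, had 3.82 against 16.6. The one nearest Rgmb, a repulsive guidance molecule gene 568 kb away, had 0.76 against 8.08. The window nearest the netrin receptor gene Dcc had 32.9 against 11, the start site of Dcc being 423 kb away (2.98-fold higher, 2.06 to 4.38). Transcription factors of hypothalamic development named 5 lower windows and 2 higher ones, for 6 of 74 genes (8.11%). The counts of both lists are too small to read as a result. Adjoining windows nearest Sim1, a factor of neuroendocrine neurons, lay 139 kb away, with 1.15 against 11 and 3.82 against 17.1 RPKM. Windows nearest Pou3f4 (66.4 kb) and Tcf7l2 (88.4 kb) had 4.21 against 18.6 and 1.53 against 11.8. A fully unique window 37.1 kb from Gli2, an effector of hedgehog signalling, had 4.97 against 0.24, from 13 reads and 1 read (20.7-fold higher, 3.05 to 863). A window 81.6 kb from Bcl11b had 11.1 against 3.18.

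Genes of light input and second messengers named 2 lower and 2 higher windows. The genes named were 3 of 54 (5.56%), against 2.25% of protein-coding gene names. Adcy8, an adenylyl cyclase activated by calcium, had 8.41 against 1.71 RPKM and Itpr2, a calcium release channel, had 13.4 against 4.41, both in introns and both higher. Pde3a, a phosphodiesterase gene, named 2 adjoining lower windows, 6.24-fold (3.02 to 15) and 3.48-fold (1.95 to 6.66) lower. Extracellular matrix genes named 7 lower windows and 1 higher one, for 6 of 56 genes (10.7%), in a list where 75.7% of windows were lower. Adjoining windows 14.2 and 14.7 kb from Frem1, a basement membrane protein gene, had 4.21 against 19.8 and 3.44 against 21.5 RPKM. A window 161 kb from Adamtsl1 had 10.7 against 2.69 (3.98-fold higher, 1.92 to 8.85). The imprinted genes Peg10 and Snrpn, 2 of 55 (3.64%), named 1 lower window each. The counts of these lists are too small to read as a result. No window was named after a gene of the lists for the DNA methylation machinery (24 genes), retrotransposon silencing (38) and astrocyte (15), oligodendrocyte (17), microglia (14) and vascular or meningeal (18) markers. At the share of 2.25% each of these lists would hold fewer than 1 named gene, so these counts of 0 carry no result. The neuron list of 19 genes named 1 window, nearest Elavl2 (1.53 against 11).

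Among families matched by symbol, olfactory receptors named 10 windows, all lower, with a median distance of 10.5 kb and all near a long frame. Of the 811 windows with a named gene, 75.7% were lower and 493 lay near such a frame. Solute carriers named 8, all lower, and vomeronasal receptors named 9 lower windows and 1 higher one. MicroRNA and small RNA genes named 10 lower and 8 higher windows.

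Few windows recurred elsewhere. At the same coordinates, 7 of the 812 windows (0.862%) were in another list, 4 of them among the 217 windows of the ventral 24 h against 26 h list, 3 among the 79 of the dorsal 24 h against 26 h list and 0 among the 131 of the dorsal 24 h against 22 h list. The ventral lists share the 24 h column, so the values only stand side by side. The window nearest Tmem121 had 10.7 RPKM at 24 h, 0 at 22 h (at least 14.6-fold higher at 24 h) and 1.06 at 26 h. The window nearest Hsd17b13, a lipid droplet enzyme gene, had 5.35, 0 and 0.210, and the one nearest C1qtnf9 had 10.7, 2.94 and 0.850. At mt-Nd5 the values were 109, 111 and 217. In the dorsal region, the window nearest Kit, a receptor tyrosine kinase gene, had 29.7 RPKM at 24 h and 9.01 at 26 h, beside 20.3 at 24 h and 6.36 at 22 h in the ventral region. Mir7087 had 22.3 and 5.89 beside 14.5 and 4.65, and Gm597 had 14.0 and 2.43 beside 16.1 and 5.14.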

How the data were processed

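The series has 11 MeDIP-seq samples in 6 groups, and the 2 ventral groups used here have 2 samples each by label. Per the submitters' processing notes, BWA and the mm9 build were used; the aligner's version, the window caller and how duplicates were combined are not given in the sources used here. Per the file headers, the authors gave 1 RPKM column per cycle length, and a column named counts whose values are a rescaled score and not reads. The authors' log2 fold change and unadjusted p-value come, per the file headers, from a count model run by the authors. In the authors' deposited table the largest p-value was 9.94e-06, and the log2 fold change differed from the log2 RPKM ratio by a median of 0.09. Some windows with 0 reads or 1 read in a column differed far more. The authors' value was 7.52 against 4.67 at Adam18, -4.08 against -4.98 at Nudt12, and -8.27 against a floored -3.53 at Gm19757. The gene name and its distance are the authors' too.

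Reads were recovered from RPKM as whole multiples of the value of 1 read, within 0.005 RPKM in every window. Read recovery and intervals were checked on simulated data. A column with 0 reads was set to a floor of 3 reads for folds, which are then bounds; such windows enter medians at the bound. Intervals and floors cover counting error only, since reads counted with no molecular identifier may be copies of the same fragment. Direction and fold use RPKM, with 2-fold as the call and no test, since each cycle length has 1 column. Repeated rows were dropped from another list (3), none from this one.

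CpGs and GC content were counted in the mm9 genome, genes and promoters (within 1000 bp of a transcript start) were taken from GENCODE M1, 31-base words were counted on both strands of the whole genome, and frames were searched within 8000 bp. Background came from all 5116421 windows of the grid without unsequenced bases, from every 20th of them for tandem repeats and from every 1000th for word counts and frames. The share of genes naming a window was taken over protein-coding gene names of GENCODE M1, as a description. A repeat annotation was not used. Families were built by single linkage; their orientation followed shared words and, where present, the frame. Intervals were computed with scipy 1.17.1, genome words with numba 0.67.0 and numpy 2.4.6, tables with pandas 2.3.3 and figures with matplotlib 3.10.9, under Python 3.11.15.

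The members and the 18 gene lists and 11 symbol families were chosen with earlier results of these data known. Windows were named by this rule: the 10 largest ratios, the 10 nearest to a start site and the 5 highest RPKM in each direction, genes with 4 or more windows, up to 4 windows per list and direction, windows found in another list, the longest runs, and windows whose sequence is printed, not all of them in full. The windows of genes with both directions and the exceptions within families were named after their values were seen. One result of a gene list is not reported here.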

Additional observations from a re-analysis of the deposited data

How the results depend on the processing

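Of 60 recomputed values, 37 stayed near the reported one: counts within 1.5 times, medians and shares within the 95% binomial interval of the reported value. The balance of the list changed: lower windows were the majority as reported and the minority among mostly unique windows and outside the large families. Median log2 ratios were taken within each direction, so their signs could not change. The 4 counts recomputed with the authors' log2 fold change, and the 10 values each with 20 reads required or adjoining windows merged, did not move. With the authors' p-value under 1e-06, 287 lower and 50 higher windows remained (284 and 50 past 2-fold), the median log2 ratios were -2.55 and 2.06 and the higher windows had a median of 6.5 CpGs. Among mostly unique windows there were 19 lower and 111 higher (14 and 111 past 2-fold), the lower had a median of 12 CpGs, and 38.9% and 69.4% lay within 50 kb of the named start site. Outside the families of 10 or more, an alternative chosen after seeing the data, there were 64 lower windows (58 past 2-fold) and 160 higher ones (160 past 2-fold), the lower with a median log2 ratio of -2.79, 16 CpGs and 60.3% within 50 kb. Past 4-fold were 83 higher windows. With 0.5 reads added, the median log2 ratio of the higher windows was 1.83. Within 50 kb of any annotated start were 56.0% and 74.6%. Smaller counts follow from fewer windows kept; the cause of the other shifts was not tested. No paired analysis was possible because each cycle length has 1 column, which carries no replicate number; for the same reason no replicate could be left out. Depth limits the windows with few reads: 10 higher windows had under 20 reads over both columns.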
